A study of Mus musculus with 2 samples.

Results

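The acrosome genes described here are 10 of the 32285 genes counted in each library: Acr, Acrbp, Acrv1, Spaca1, Spaca3, Spaca4, Spaca7, Zpbp, Zpbp2 and Fam170b. They were chosen by symbol, as genes for proteins of the acrosome's contents or membranes, and all 10 were found in both libraries. The mRNA was counted cell by cell in dissociated whole mouse testis, with 1 library from a Prm2 +/- animal source and 1 from a Prm2 -/- source. Prm2 encodes protamine 2, one of the small basic proteins that pack sperm DNA. Strain, age and the number of animals behind each library were not given in the sources used here, and no wild-type library was analysed here, so the Prm2 +/- library, which carries 1 disrupted copy, is the only control. Because each genotype has 1 library, no difference between them could be tested over replicates. All intervals are 95% and cover counting error only.

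The acrosome is a secretory vesicle derived from the Golgi apparatus that spreads over the front of the spermatid nucleus. Its matrix stores proteases and proteins that bind them, its inner membrane lies against the nuclear envelope, and its contents are released when a sperm meets the coat of the egg. The vesicle begins to form late in meiosis, takes its cap shape in round spermatids, and is remodelled as the nucleus condenses in elongating spermatids, when protamines replace histones.

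Among the matrix genes, Acr encodes the protease acrosin (chromosome 15, 89568326 to 89574585, mm10) and Acrbp encodes the protein that binds its inactive precursor (chromosome 6, 125049689 to 125063267). Acrv1 encodes the vesicle protein SP-10 (chromosome 9, 36693220 to 36698843), and Spaca3 encodes a protein of the lysozyme family (chromosome 11, 80858365 to 80867814). Spaca7 encodes a protein released during the acrosome reaction (chromosome 8, 12573029 to 12600744). Zpbp (chromosome 11, 11279626 to 11462408) and Zpbp2 (chromosome 11, 98551097 to 98558665) encode proteins that bind the egg coat and take part in acrosome compaction. Spaca1 encodes a membrane protein needed for the shape of the acrosome (chromosome 4, 34024874 to 34050191), Spaca4 a lipid-anchored membrane protein (chromosome 7, 45725107 to 45725813), and Fam170b an acrosomal protein (chromosome 14, 32833962 to 32836789). The annotation places another gene on the opposite strand over part of Acrbp (4930557K07Rik), Spaca4 (Fam83e), Spaca7 (D630011A20Rik) and Zpbp (Spata48). The strand setting of the counting was not given in the sources used here, and whether UMIs of such pairs were kept apart was not tested. The other 6 members overlap no annotated gene.

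The sequences upstream of 4 members are printed because these genes stand for the 2 patterns of expression described below. Zpbp2 and Zpbp mRNAs were already abundant in the last late-spermatocyte-like cluster in the stage order, whereas Spaca1 and Acrv1 mRNAs rose in the cluster after it. RefSeq promoter windows on GRCm38.p6 were matched by symbol for 9 of the 10 members, the exception being Acr. Each line gives the 250 bases before the RefSeq start, 5′ to 3′ on the gene's own strand. Capitals mark the core of the cAMP response element (TGACG, or CGTCA on the other strand), the element bound by CREM, and the core bound by SOX proteins (ACAAT, or ATTGT on the other strand).
Zpbp2, chr11:98550847-98551096, plus strand: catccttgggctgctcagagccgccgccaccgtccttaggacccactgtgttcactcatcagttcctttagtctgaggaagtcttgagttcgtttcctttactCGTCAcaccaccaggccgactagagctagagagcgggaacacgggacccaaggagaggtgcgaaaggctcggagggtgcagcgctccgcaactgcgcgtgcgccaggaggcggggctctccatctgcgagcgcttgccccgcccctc
Zpbp, chr11:11462420-11462669, minus strand: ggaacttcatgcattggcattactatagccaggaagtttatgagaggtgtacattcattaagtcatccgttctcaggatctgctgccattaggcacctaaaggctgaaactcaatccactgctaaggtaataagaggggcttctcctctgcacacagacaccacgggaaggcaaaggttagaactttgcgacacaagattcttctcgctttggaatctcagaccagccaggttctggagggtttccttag
Spaca1, chr4:34050066-34050315, minus strand: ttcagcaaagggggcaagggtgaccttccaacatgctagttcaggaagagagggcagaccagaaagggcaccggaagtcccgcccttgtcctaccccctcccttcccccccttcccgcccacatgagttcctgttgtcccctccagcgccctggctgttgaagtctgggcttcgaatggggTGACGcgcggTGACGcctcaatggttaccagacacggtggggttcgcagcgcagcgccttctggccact
Acrv1, chr9:36692970-36693219, plus strand: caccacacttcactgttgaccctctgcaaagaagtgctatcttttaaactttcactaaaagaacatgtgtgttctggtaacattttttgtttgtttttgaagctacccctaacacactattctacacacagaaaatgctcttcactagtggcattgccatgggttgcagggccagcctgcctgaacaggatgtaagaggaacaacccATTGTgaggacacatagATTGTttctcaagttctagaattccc

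Over the whole RefSeq window, which runs 250 bases before to 50 after the start, the core TGACG lay in 4 of the 9 members with a window, against 23.1% of 27025 genes. In Spaca1 it occurred at 69 and 59 bases before the start, and in Zpbp2 at 147 bases before it. The full palindrome TGACGTCA, which contains that core, lay in 0 of the 9, against 2.03% of genes. The SOX core ACAAT lay in 1 of the 9, Acrv1, where it occurred at 43 and 26 bases before the start, against 34.4% of genes. The MYB core AACNG lay in 7 of the 9, against 82.4% of genes, and the RFX core GTTNCC in 7 of the 9, against 48.8%. All motifs were searched on both strands. The core TGACG was found in members of both patterns: Acrbp and Zpbp2, abundant in spermatocytes, and Spaca1 and Spaca3, which rose later.

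The Prm2 +/- library held 15210 cell barcodes and 71364845 UMIs (unique molecular identifiers, each counting 1 captured mRNA molecule), with a median of 1882.5 UMIs per barcode. The Prm2 -/- library held 22885 barcodes, 123588822 UMIs and a median of 3716. Both exceed the 15000 cells that were loaded per library. The libraries shared 88 barcode sequences. After quality filters and removal of called doublets, 14648 and 18960 cells remained, and they were clustered together into 30 clusters with the 10 acrosome genes left out of the genes used for clustering. In elongating-spermatid-like cells Prm2 itself was 39967 CPM (its UMIs scaled to a common library total) in the Prm2 +/- library and 10.3 CPM in the Prm2 -/- library, so the targeted gene followed the labels.

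Levels are given along 12 germ cell clusters in which the median cell of both libraries had at least 2000 UMIs, numbered 1 to 12 by stage markers. Clusters 11 and 12 had the same place on that scale (5.0) and were numbered by size, so 11 before 12 is no order of stage. Cluster 1 was spermatogonia-like, 2 early-spermatocyte-like, and 4 and 5 late-spermatocyte-like. Clusters 7, 8 and 9 were round-spermatid-like and 10, 11 and 12 elongating-spermatid-like. Cluster 3 (led by Tex101) lay between 2 and 4, and cluster 6 (led by Prss46) between late spermatocytes and round spermatids. Neither met the rule for a name, and cluster 6 scored highest for late spermatocyte markers (0.988, against 0.69 for round spermatid markers). The libraries filled the elongating clusters unevenly: cluster 10 held 88 Prm2 +/- and 797 Prm2 -/- cells, cluster 11 held 173 and 2508, and cluster 12 held 1849 and 104.

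The 10 genes fell into 2 groups by the stage at which their mRNA became abundant. Acr, Acrbp, Zpbp and Zpbp2 stood in cluster 5, the last late-spermatocyte-like cluster, at 69.1% to 100% of their own highest cluster in both libraries. Acrv1, Spaca1, Spaca3, Spaca4, Spaca7 and Fam170b stood there at 4.21% to 8.70% of their highest cluster. No member lay between these ranges. Late-spermatocyte-like cells of low depth were less clear-cut: in cluster 14 (1476 and 1684 cells, medians of 1975.5 and 1741.5 UMIs) the 6 later genes were at 93.5 CPM (Spaca4, Prm2 +/- library) to 280 CPM (Spaca1, Prm2 -/- library). At or above 50% of the highest cluster in both libraries were thus 4 of the 10 members, against 35.9% of the 7410 genes that reached 50 CPM in the series, and below 10% were 6 of the 10, against 28.1%.

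**Figure D1:**
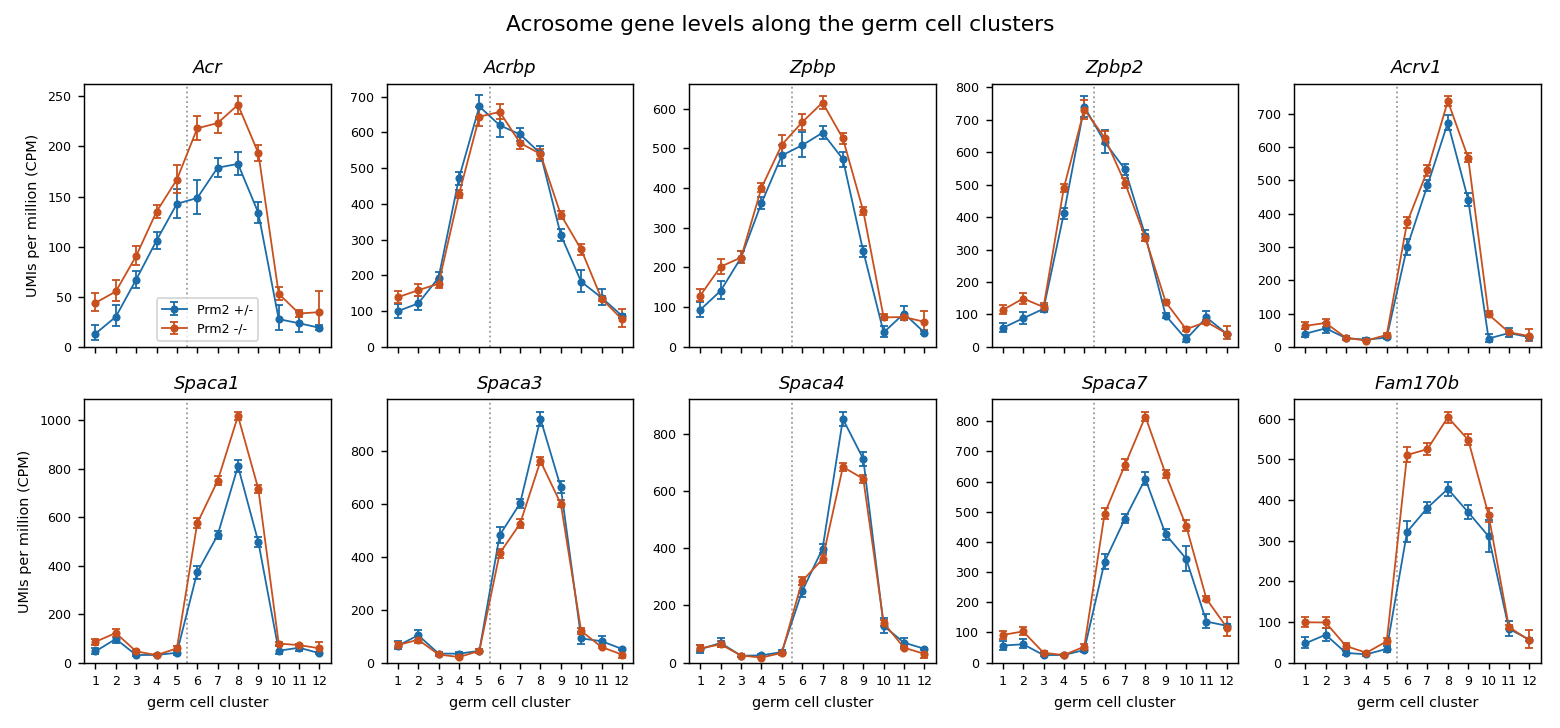
Level of each gene (CPM, linear axis from 0) in germ cell clusters 1 to 12 of the Prm2 +/- library (blue) and the Prm2 -/- library (orange); bars are 95% Poisson intervals for counting error, and the dotted line follows the last late-spermatocyte-like cluster. Acr, Acrbp, Zpbp and Zpbp2 are high on both sides of the line, and the other 6 genes are high only to its right, with the highest value of each in cluster 8.

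Zpbp2, one of the pair of egg-coat-binding genes, was highest as CPM in cluster 5 in both libraries. It stood lowest of the 4 early genes in cluster 9, relative to its own highest cluster. In the Prm2 +/- library it was 412 CPM (395 to 429) in cluster 4, 740 CPM (709 to 773) in cluster 5 and 96.5 CPM (87.9 to 106) in cluster 9. In the Prm2 -/- library it was 491 CPM (479 to 503), 731 CPM (703 to 761) and 138 CPM (132 to 145) in the same clusters. By cluster 8 Zpbp2 stood at 46.3% and 46.0% of its highest cluster, while its paralog Zpbp still stood at 87.7% and 85.3%. Zpbp was highest as CPM in cluster 7 of both libraries, at 539 and 615 CPM in the Prm2 +/- and Prm2 -/- libraries. The highest cluster depended on the scale. In UMIs per cell both genes were highest in cluster 4, whose cells had medians of 22166 and 13984 UMIs, against 5748 and 4817 in cluster 5. Zpbp2 came to 9.29 and 6.85 UMIs per cell in cluster 4, against 6.12 and 5.01 in cluster 5. Zpbp came to 8.16 and 5.59 in cluster 4, against 5.66 and 4.00 in cluster 7.

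Acrbp, for the partner of proacrosin, was highest as CPM in cluster 5 of the Prm2 +/- library and in cluster 6 of the Prm2 -/- library. In UMIs per cell it was highest in cluster 4 of both, at 10.7 and 5.96, against 5.56 and 4.41 in cluster 5. In cluster 5 it was 673 CPM (643 to 704) in cluster 5 of the Prm2 +/- library and 644 CPM (617 to 672) in that of the Prm2 -/- library. In cluster 9 it was 313 and 370 CPM. Acr, for acrosin itself, was 143 and 167 CPM in cluster 5 and was highest as CPM in cluster 8, at 183 CPM (171 to 195) and 242 CPM (233 to 250). In UMIs per cell Acr was highest in cluster 4 of the Prm2 +/- library (2.39) and in cluster 8 of the Prm2 -/- library (2.17). As CPM, Acr was higher in the Prm2 -/- library in every one of clusters 1 to 12. In clusters 1, 2, 10 and 11 Acr came to 0.0617 to 0.329 UMIs per cell. That is not above the range of all the members in the Leydig-like cells read below as background, which is not the background of Acr alone. The Acr intervals of the 2 libraries overlapped in clusters 5, 11 and 12 and were apart in the other 9, and in cluster 5 the log2 ratio was 0.23 (0.04 to 0.42).

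The step between cluster 5 and cluster 6 was large for the 6 later genes. Spaca1 was 40.7 CPM (33.5 to 49.0) in cluster 5 and 373 CPM (346 to 400) in cluster 6 of the Prm2 +/- library, and 58.7 CPM (50.8 to 67.5) and 575 CPM (555 to 594) in the Prm2 -/- library. Acrv1 was 28.3 and 300 CPM in the first library and 36.1 and 374 CPM in the second. All 6 were highest as CPM in cluster 8 in both libraries. There Spaca1 was 809 and 1016 CPM, Spaca3 924 and 764 CPM, and Spaca4 851 and 683 CPM in the Prm2 +/- and Prm2 -/- libraries. Acrv1 was 673 and 738 CPM there, Spaca7 609 and 816 CPM, and Fam170b 427 and 603 CPM. In UMIs per cell the 6 genes were again highest in cluster 8, except Fam170b in the Prm2 +/- library, highest in cluster 9 (4.51).

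Within the later group, Spaca4 lagged and Fam170b led. In cluster 6 Spaca4 stood at 29.3% and 41.7% of its highest cluster, whereas Fam170b stood at 75.3% and 84.6%. The group also divided at the other end. In cluster 10, the first elongating-spermatid-like cluster, Spaca7 was 345 CPM (305 to 388) and 453 CPM (435 to 472), or 56.6% and 55.6% of its highest cluster, and Fam170b was 311 CPM (273 to 352) and 363 CPM (347 to 380), or 72.8% and 60.2%. The remaining members stood there at 3.23% (Zpbp2, Prm2 +/- library) to 41.5% (Acrbp, Prm2 -/- library) of their highest cluster. In cluster 12 the highest share was 20.1%, for Spaca7 in the Prm2 +/- library.

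**Figure D2:**
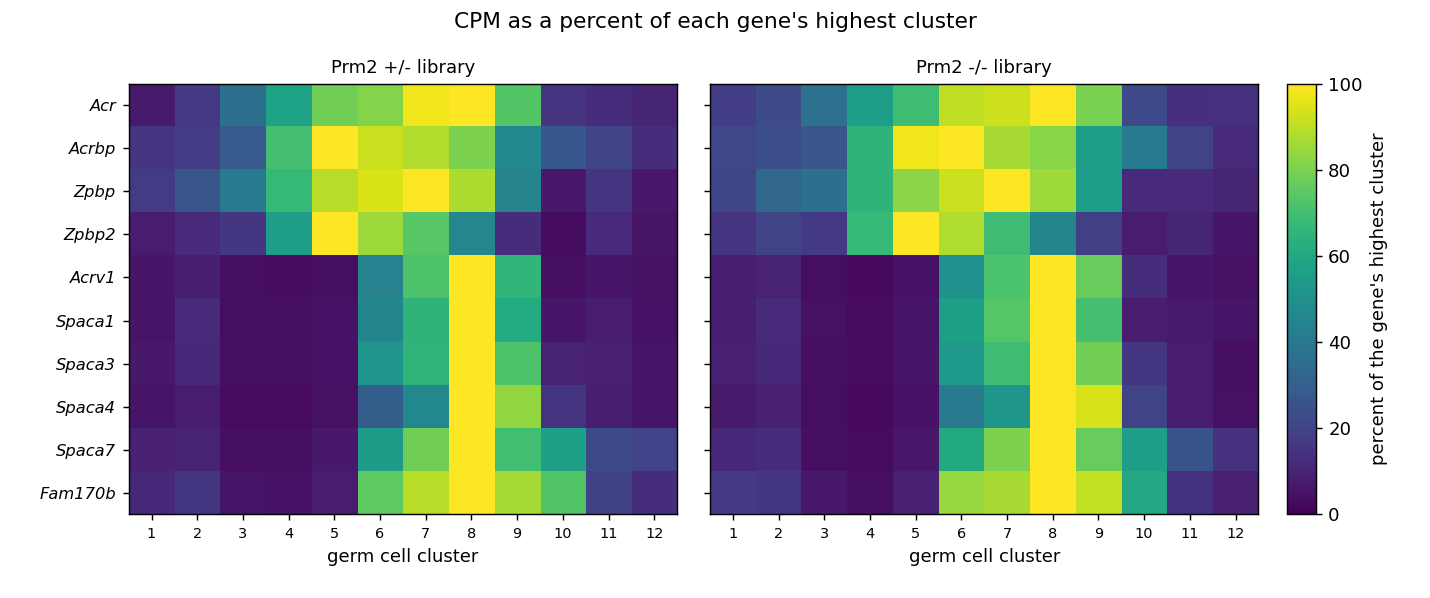
CPM of each gene as a percent of its highest cluster (colour, 0 to 100%) in germ cell clusters 1 to 12, for the Prm2 +/- library (left) and the Prm2 -/- library (right). The upper 4 genes are already bright in clusters 4 and 5, the lower 6 brighten from cluster 6, and Spaca7 and Fam170b stay above 50% in cluster 10 in both libraries.

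mRNA released from broken cells is captured in droplets of every cell type, so the same genes were read in Leydig-like cells of cluster 21 (100 and 169 cells), testosterone-producing cells that should lack acrosome mRNA. There the members amounted to 0.110 to 0.430 UMIs per cell in the Prm2 +/- library and 0.136 to 0.373 in the Prm2 -/- library. The 6 later genes were at 0.234 to 0.369 UMIs per cell in cluster 5 of the Prm2 +/- library and 0.233 to 0.402 in that of the Prm2 -/- library. As these cells differ in depth the same genes were also compared as CPM: they were at 28.3 to 58.7 CPM in cluster 5, against 33.4 to 73.2 CPM in cluster 21, and are read in cluster 5 as background. Zpbp2 in the same cells was at 6.12 and 5.01 UMIs per cell, and in cluster 8 Spaca1 was at 8.36 and 9.13. In clusters 1 and 2 the members were at 0.0617 to 0.474 UMIs per cell. The highest was Zpbp in cluster 2 of the Prm2 -/- library, at 202 CPM against 66.9 CPM in its Leydig-like cells, and so above that reference.

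To count cells at equal depth, each cell was thinned at random to 3020 UMIs and shallower cells were left out. In cluster 5 Zpbp2 was then found in 167 of 193 Prm2 +/- cells (86.5%, 80.9 to 91.0) and 260 of 297 Prm2 -/- cells (87.5%, 83.2 to 91.1). Spaca1 was found in 14.5% and 14.1% of these cells, close to 14.8% and 17.7% in Leydig-like cells. In cluster 8 Spaca1 was found in 398 of 430 Prm2 +/- cells (92.6%, 89.7 to 94.9) and 1174 of 1241 Prm2 -/- cells (94.6%, 93.2 to 95.8). Before thinning the Spaca1 shares in cluster 8 were 96.8% and 97.2%, at median depths of 10128.5 and 7019 UMIs, and in cluster 21 33.0% and 24.9%, at 5530 and 4176 UMIs. Intervals of shares are exact binomial.

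**Figure D3:**
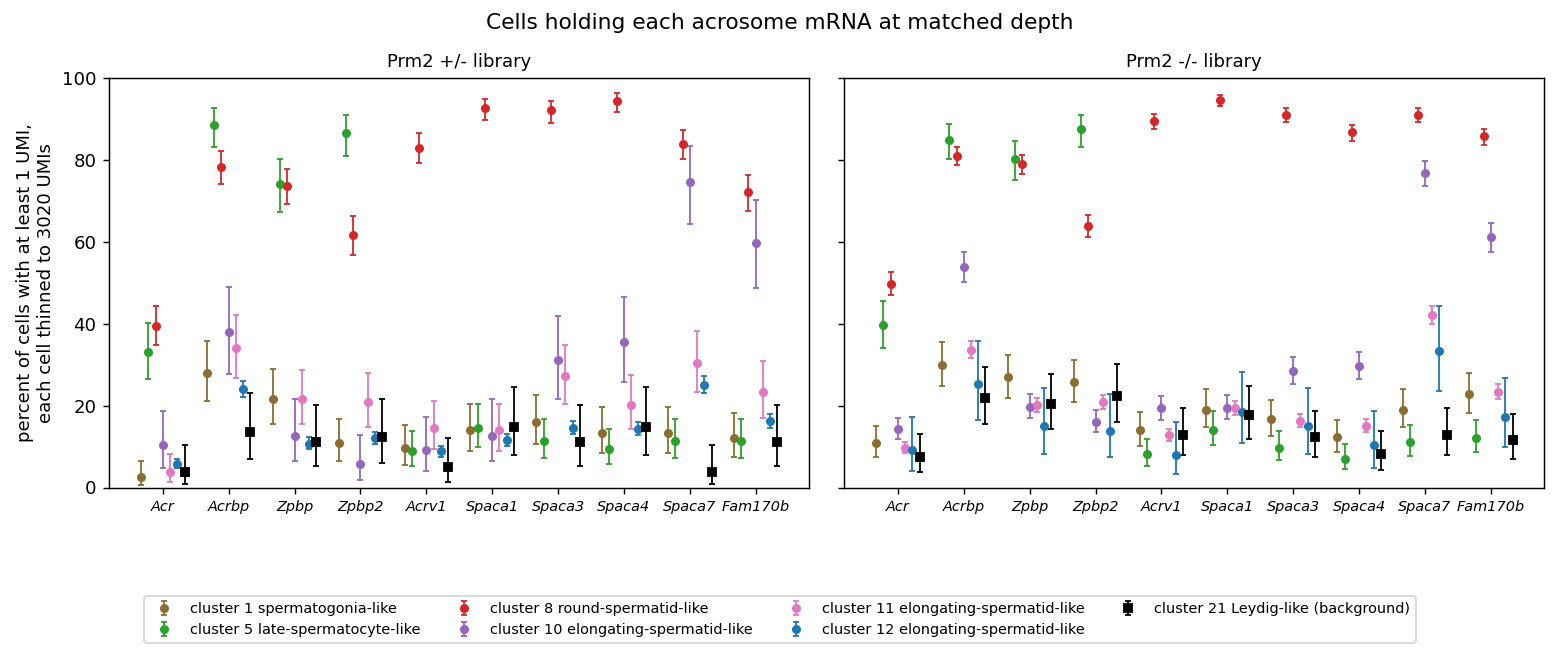
Percent of cells with at least 1 UMI of each gene after every cell was thinned to 3020 UMIs, in 6 germ cell clusters and the Leydig-like cluster 21 (black squares), for the Prm2 +/- library (left) and the Prm2 -/- library (right); bars are exact 95% binomial intervals. Only Acr, Acrbp, Zpbp and Zpbp2 stand clear of the black squares in cluster 5, and Spaca7 and Fam170b have the highest shares of cluster 10 in both libraries.

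The genes were found together in single spermatids. A thinned cell of cluster 5 held a median of 3 of the 10 mRNAs in each library, and one of cluster 6 held 7. In cluster 8 the median was 8 in each library, and at least 8 of the 10 were found in 59.8% of 430 Prm2 +/- cells and 72.8% of 1241 Prm2 -/- cells. This count rests on the depth: thinned to 1000 UMIs, a cell of cluster 8 held a median of 4, and 1.23% and 2.84% of cells held at least 8. At 3020 UMIs Leydig-like cells of cluster 21 in the Prm2 +/- library held a median of 1. At the same depth Acr was found in 39.5% and 49.7% of the cells of cluster 8 and Zpbp2 in 61.6% and 63.8%, the lowest shares there.

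Across 19 germ cell clusters in both libraries (38 points, which share the 2 libraries), Pearson's r between members ranged from 0.12 for Spaca7 with Zpbp2 to 0.973 for Acrv1 with Spaca1. Spaca3 and Spaca4 had r = 0.970. Among 7713 other genes, the 10 whose profile was most like the mean of the members were Scamp2 (r = 0.961), Fthl17a (0.959), Mycbpap (0.953), Tex21 (0.952), Fancd2os (0.948), Tekt2 (0.948), Ccdc116 (0.946), Gtsf2 (0.946), Ftmt (0.944) and Tex36 (0.943). These correlations describe the shapes of the profiles and carry no test. Tex21 was one of the markers used to score round spermatids.

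Between the libraries, the members were close to each other in round-spermatid-like cells (1906 Prm2 +/- and 4396 Prm2 -/- cells of clusters 7, 8, 9 and the low-depth cluster 16). All 10 passed the filter on low values (50 CPM in at least 1 library and 100 UMIs over both), and 0 of 10 were 2-fold or more apart, where 1.79% of 3845 genes were. A log2 ratio of at least 0.3 either way was found for 4 of 10, where 40.3% of those genes had one. Summed over the members, the level was 4791 CPM in the Prm2 +/- library and 5383 CPM in the Prm2 -/- library, a log2 ratio of 0.17 (0.16 to 0.18). The median log2 ratio of the members was 0.16, beside 0.01 over all genes that passed.

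The members did not differ between the libraries in 1 direction. Fam170b was 383 CPM in the Prm2 +/- library and 552 CPM in the Prm2 -/- library, a log2 ratio of 0.53 (0.49 to 0.57). Spaca7 was 504 and 696 CPM (0.47, 0.43 to 0.50), and Spaca1 was 599 and 826 CPM (0.46, 0.43 to 0.50). Acr was 165 and 216 CPM (0.39, 0.33 to 0.45). These were the 4 members past 0.3, each higher in the Prm2 -/- library. Acrv1 was 547 and 624 CPM (0.19) and Zpbp 435 and 479 CPM (0.14). Spaca3 was 702 and 633 CPM, a log2 ratio of -0.15 (-0.18 to -0.12), and Spaca4 was 605 and 575 CPM (-0.07). Acrbp, at 498 and 481 CPM, had a log2 ratio of -0.05, and Zpbp2, at 353 and 301 CPM, one of -0.23. Of 15 alternative settings, 3 turned the direction of Acrv1 (down to -0.09), 1 that of Zpbp (-0.03) and 1 that of Zpbp2 (0.02). The class holds its clusters in different proportions in the libraries, with 393 of 1906 and 1295 of 4396 cells in cluster 9, where Zpbp2 is low.

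Cluster by cluster, 6 members were higher in the Prm2 -/- library in each of clusters 6, 7, 8 and 9 with intervals clear of 0: Acr, Acrv1, Spaca1, Spaca7, Zpbp and Fam170b. The same held for 26.7% of the 2445 genes that passed the filter in all 4 clusters. Spaca3 was lower in all 4, with log2 ratios of -0.27 to -0.14, as were 14.4% of those genes. Spaca4 was higher in cluster 6 (0.19) and lower in clusters 7 to 9 (-0.14, -0.32 and -0.15). Zpbp2 differed little in clusters 6 to 8 (0.03, -0.11 and -0.03) and was higher in cluster 9 (0.52, 0.37 to 0.67).

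These differences were not the same in cells of low depth. Clusters 15, 16, 18 and 19 scored highest for round spermatid markers and had a median below 2000 UMIs in at least 1 library. In them Spaca1 had log2 ratios of -0.38 to -0.11 and Spaca7 of -0.31 to -0.03, below 0 in all 4 clusters. Fam170b ranged from -0.06 to 0.26 with every interval spanning 0. Zpbp was above 0 in all 4 (0.07 to 0.19), with every interval spanning 0. Spaca3 was below 0 in all 4 with intervals clear of 0 (-0.60 to -0.26), as it was in clusters 6 to 9. Summed over the members, the log2 ratio was -0.21, -0.19, -0.26 and -0.10 in clusters 15, 16, 18 and 19, against 0.26, 0.15, 0.10 and 0.28 in clusters 6 to 9. The 10 members together came to 3.78 to 10.5 UMIs per cell in those shallow clusters, against 32.9 to 60.2 in clusters 6 to 9 and 2.40 to 2.80 in Leydig-like cells of cluster 21.

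**Figure D4:**
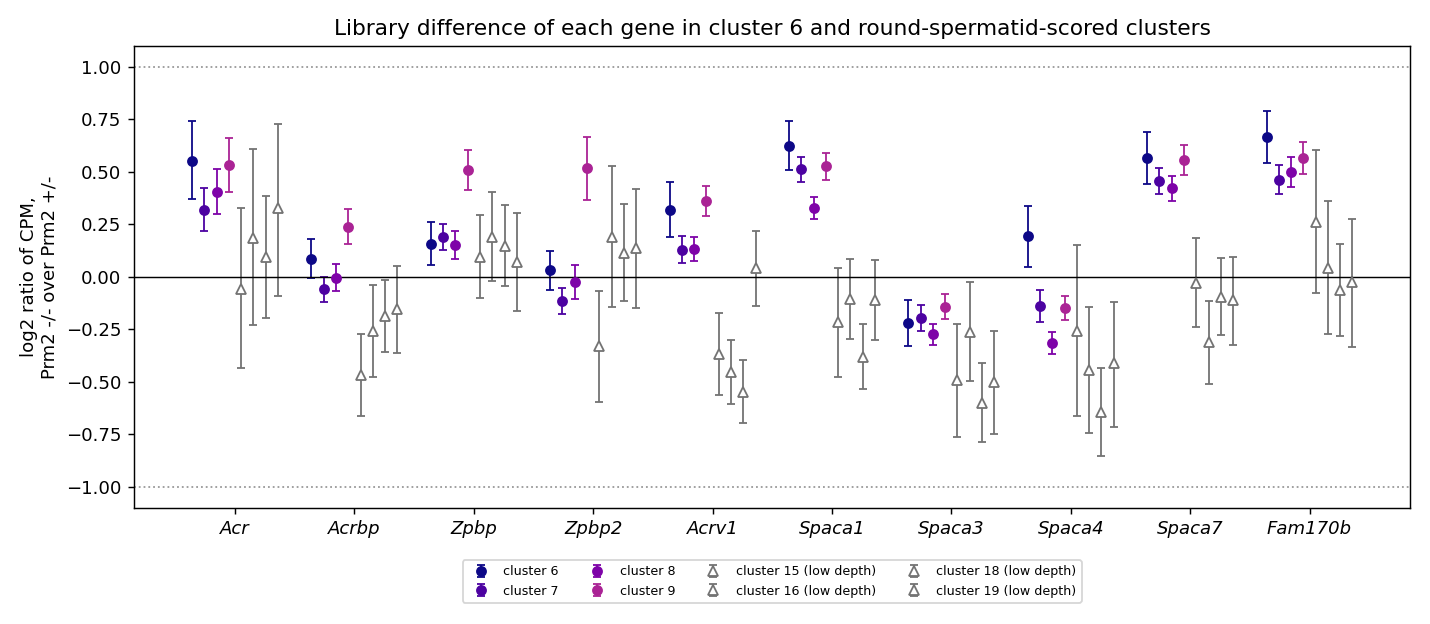
Log2 ratio of CPM, Prm2 -/- over Prm2 +/-, for each gene in clusters 6 to 9 (filled circles) and in the 4 clusters of low depth that scored highest for round spermatid markers (open triangles); bars are 95% intervals for counting error and dotted lines mark 2-fold. Spaca3 lies below 0 in all 8 clusters, Spaca1 and Spaca7 lie above 0 in clusters 6 to 9 and below 0 in the other 4, and no point reaches 2-fold.

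Background mRNA was also read in Sertoli-like cells (1257 and 949 cells), the somatic cells that nurse the germ cells. As CPM it differed there between the libraries gene by gene. Spaca4 was 214 CPM in the Prm2 +/- library and 94.5 CPM in the Prm2 -/- library, a log2 ratio of -1.18 (-1.44 to -0.93). Spaca3 was 239 and 135 CPM there (-0.82, -1.05 to -0.60), and Acr was 66.1 and 83.4 CPM (0.34, -0.02 to 0.69). Spaca4 was the 1 of 10 members 2-fold or more apart in Sertoli-like cells, where 23.8% of 4673 genes were. The class differed in make-up, with 1238 of 1257 Prm2 +/- and 771 of 949 Prm2 -/- cells in cluster 26. Within cluster 26 Spaca4 had a log2 ratio of -0.98 (-1.26 to -0.70), short of 2-fold, Spaca3 one of -0.52 (-0.76 to -0.28) and Acr one of 0.54 (0.16 to 0.92). Depth differed as well, with medians of 953 and 1182 UMIs in cluster 26. Summed over the members, Sertoli-like cells held 1976 and 1565 CPM but 2.64 and 3.42 UMIs per cell, so the direction of the sum depended on the scale. It also depended on the cells: in Leydig-like cells of cluster 21 the sum was 476 and 542 CPM (0.19, -0.04 to 0.41). The whole Leydig-like class, which adds cluster 27 (195 and 11 cells), had a summed log2 ratio of -0.48 (-0.64 to -0.31). The part of this background in the differences of the shallow germ cell clusters was not tested. With the level per Sertoli-like cell subtracted from each round-spermatid-like cell, the summed log2 ratio was 0.13.

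In elongating-spermatid-like cells (2174 and 3449 cells), 9 of 10 members passed the filter, Acr (20.0 and 38.9 CPM) being the exception. Fam170b was 73.5 CPM in the Prm2 +/- library and 165 CPM in the Prm2 -/- library, a log2 ratio of 1.16 (1.06 to 1.27), and Spaca7 was 136 and 277 CPM (1.03, 0.95 to 1.10). They were the 2 of 10 members 2-fold or more apart, where 12.2% of 2428 genes were. The other 7 that passed had log2 ratios of 0.41 (Spaca3) to 0.97 (Acrv1). With doublets removed to the expected rate 2 members were again past 2-fold, but they were Acrv1 (1.08) and Spaca1 (1.02), with Fam170b at 0.99 and Spaca7 at 0.96. The summed level was 596 and 1084 CPM, a log2 ratio of 0.86 (0.83 to 0.90), and the median over all genes that passed was 0.27.

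The make-up of this class also differed between the libraries. The class holds clusters 10, 11 and 12 and the low-depth cluster 20 (64 and 40 cells, medians of 1880 and 1595.5 UMIs). Cluster 10, the one of the 4 with the highest summed acrosome mRNA (1220 and 1706 CPM), held 88 of 2174 Prm2 +/- cells and 797 of 3449 Prm2 -/- cells. In cluster 20 the sum was 1087 and 1337 CPM, a log2 ratio of 0.30 (-0.09 to 0.68), and no member passed the filter. Within cluster 11 the summed log2 ratio of the members was 0.06 (-0.04 to 0.17), and within cluster 12 it was 0.03 (-0.16 to 0.20). Cluster 11 held 173 and 2508 cells and cluster 12 held 1849 and 104, so each ratio sets few cells of 1 library against many of the other. The largest cluster of each library came to 530 CPM (cluster 12, Prm2 +/-) and 847 CPM (cluster 11, Prm2 -/-). Make-up and genotype cannot be told apart in this class. Within cluster 10 it was 0.48 (0.39 to 0.58), with 3 of 10 members 2-fold or more apart (Acrv1, Zpbp and Zpbp2), where 8.19% of genes were. These 3 rested on 20, 29 and 19 UMIs in the Prm2 +/- library. That is 0.227, 0.330 and 0.216 UMIs per cell, within the range given above for all 10 members in Leydig-like cells, which is not the background of each gene alone. The 10 members summed to 4.95 and 4.02 UMIs per cell in cluster 11 and 3.45 and 2.55 in cluster 12. In Leydig-like cells of cluster 21 the sum was 2.80 and 2.40, and the share of background in clusters 10 to 12 was not tested. With clusters 10, 11 and 12 weighted equally (cluster 20 had too few cells for this) the summed log2 ratio was 0.27, and with TMM scaling factors (which allow for a few very abundant mRNAs) it was 0.31; both left 0 of 10 members past 2-fold and turned Spaca3 (to -0.10 and -0.15) and Spaca4 (to -0.15 and -0.08) below 0. In cluster 11 Spaca7 was 136 and 211 CPM (0.63, 0.39 to 0.89), whereas Fam170b was 83.1 and 87.3 CPM (0.07, -0.24 to 0.40). Cluster 29 (45 and 212 cells) shared leading genes with cluster 11, among them Defb33 and Paqr5. It scored highest for Sertoli markers (1.184, against 0.974 for elongating spermatid markers) and was left unnamed, outside the class. There the members summed to 654 and 1121 CPM (0.78, 0.54 to 1.02). Of the 8 that passed the filter 3 were 2-fold or more apart, where 10.5% of 2106 genes were.

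Genes that build and anchor the acrosome were also read in cluster 5. Of 28 genes on that list, 25 reached 50 CPM in the series in both libraries. In cluster 5, 10 of them stood at 50% or more of their highest cluster and 12 stood below 10%, with 3 between. Of the 12, Vps54 and Vps13b were highest in cluster 2 and so were low in cluster 5 after their peak, and the other 10 were highest in cluster 8 or later. Dpy19l2, whose product anchors the acrosome to the nuclear envelope, was highest in cluster 5 at 247 and 214 CPM. Capza3, for an actin-capping subunit of the sperm head, was at 5.03% and 5.45% of its highest cluster there. Of 28 other acrosomal proteins, 25 reached 50 CPM, with 10 at 50% or more and 15 below 10%. Among those 15, Lyzl4, Lyzl6 and Izumo1 were also markers used to score round spermatids and order the clusters, so their place was partly set by the scoring. Spam1, for the sperm hyaluronidase, was at 3.52% and 3.96%, and Spink2, for an inhibitor of acrosin, at 95.5% and 100%.

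In round-spermatid-like cells, 20 of the 28 building and anchoring genes passed the filter, with 11 log2 ratios above 0, 9 below 0 and 0 at 2-fold (median 0.00). The 4 largest were Spata16 (260 and 165 CPM, -0.66), which is required for acrosome formation, Stx2 (77.6 and 119 CPM, 0.62), for a membrane fusion protein, Tmf1 (164 and 112 CPM, -0.56), for a Golgi protein, and Ccin (170 and 244 CPM, 0.52), for the head cytoskeleton protein calicin. Of the 28 other acrosomal proteins 25 passed, with 17 above 0, 8 below 0 and 0 at 2-fold (median 0.09). The largest there were Spaca5 (0.98), a relative of Spaca3 in the lysozyme family, Cd46 (0.70), for a protein of the inner acrosomal membrane, Zp3r (0.67), for a matrix protein that binds the egg coat, and Lyzl6 (0.65), also of the lysozyme family.

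In elongating-spermatid-like cells 17 building and anchoring genes passed, 15 above 0 and 2 below, with a median of 0.37. Ccin (51.2 and 166 CPM, 1.70) was the 1 gene past 2-fold, where 12.2% of all genes were, followed by Fam209 (0.79), Spata46 (0.70) and Calr3 (0.68), the last for a testis calreticulin. Of the other acrosomal proteins 12 passed, 10 above 0 and 2 below, with a median of 0.68, beside 0.27 over all genes. The 4 past 2-fold (of 12, against 12.2% of all genes) were Cst13 (139 and 497 CPM, 1.84), for a cystatin, Adam2 (1.44), for fertilin beta, Spink2 (1.11) and Pdia3 (1.03), for a protein disulfide isomerase. These class values carry the same difference in make-up between clusters 10, 11, 12 and 20 as those of the members.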

How the data were processed

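The authors deposited matrices of raw UMI counts for every gene in every barcode, written by Cell Ranger 7.1.0 according to their headers; the mm10 build and Seurat 4.1.0 are named in the submitters' processing notes, without a role for Seurat. Whether intronic reads were counted was not given in the sources used here. The libraries were made with a 10x Genomics 3′ kit, per the labels' protocols. The members and gene lists were chosen with earlier results of these data known.

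Barcodes were required to have 500 or more UMIs, 250 or more genes and no more than 20% of mitochondrial UMIs, and doublets called by Scrublet (scanpy 1.11.5) were removed: 390 of 15038 Prm2 +/- cells (2.59%) and 3543 of 22503 Prm2 -/- cells (15.7%). Both libraries were clustered together without integration (2000 variable genes, 30 components, 20 neighbours, Leiden resolution 1, leidenalg 0.10.2), leaving out the members, protamine and transition protein genes, and mitochondrial, Xist and Y-linked genes. Clusters were called by 15 marker sets. The cut-offs of that rule (score of 0.5, margin of 0.35, at least 3 markers above 10 CPM) were set after seeing the data. Clusters were ordered by the same stage markers, and clusters of equal order were placed by size.

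UMIs were summed per cluster or class and library and divided by their total (CPM). CPM intervals are exact Poisson, ratios conditional binomial and shares Clopper-Pearson, all 95%; they cover counting error only and there is no p-value. A 2-fold difference is a rule of size. On simulated counts the ratio interval covered the true value for 95.9% of 3602 genes in round-spermatid-like cells and 95.5% of 2209 in elongating-spermatid-like cells, and 100 of 100 genes changed by 1.5 on the log2 scale passed 2-fold in each. These counts were drawn from the Poisson model that the interval assumes, so the result checks the calculation only. It cannot show coverage under variation between cells, clusters or libraries. TMM factors came from edgeR 4.0.16. Likeness was Pearson's r of log2(CPM + 10) with the mean standardised profile of the members. Named genes were all members, up to 4 genes of each list with the largest log2 ratio in each spermatid class, the 10 genes of highest likeness, stage and cell markers, and Prm2; Dpy19l2, Capza3, Spam1, Vps54 and Vps13b, and Spink2 for its onset, were chosen after their values were seen. Alternatives covered cell filters, doublets, clustering, scaling, weighting, depth and background mRNA. Gene positions are from GENCODE M21 (mm10).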

Additional observations from a re-analysis of the deposited data

How the results depend on the processing

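The summed log2 ratio of the 10 members in round-spermatid-like cells (0.17) stayed above 0 under all 15 alternatives. It was 0.136 at 1000 UMIs or more per cell, 0.135 at 10% mitochondrial UMIs or less, 0.119 with all cells kept, 0.123 with doublets removed to the expected rate, 0.132 and 0.133 at Leiden resolutions 0.5 and 2, 0.144 with genes scaled within libraries, 0.0299 with each library clustered on its own, 0.150 with TMM, 0.0808 with cells and 0.0982 with clusters weighted equally, 0.129 with Sertoli-like background subtracted, and 0.155 without protamine and transition protein UMIs. In elongating-spermatid-like cells (0.86) the same settings gave 0.768, 0.793, 0.795, 0.815, 0.803 (resolution 0.5), 0.783, 0.982, 0.306, 0.750, 0.273, 1.16 and 0.734, and 0.805 with cells thinned to 3020 UMIs. The 2 members 2-fold apart there became 3 at Leiden resolution 0.5 and with each library clustered on its own, 1 at 1000 UMIs, at a minimum of 200 CPM and without protamine UMIs, and 0 with TMM and with clusters weighted equally. The count of 0 in round-spermatid-like cells did not move, and 7 to 9 members were highest in that class in both libraries (7 in the report's setting). In round-spermatid-like cells Acr, Spaca1, Spaca7 and Fam170b were above 0 and Acrbp, Spaca3 and Spaca4 below 0 in 15 of 15 settings; Acrv1 fell on the other side in 3, Zpbp in 1 and Zpbp2 in 1. The cause of these shifts was not tested. With the background subtracted, 3 members were at or below 3 UMIs in elongating-spermatid-like cells and have no ratio. In the same setting and cells the log2 ratio of Acr turned from 0.96 to -1.165. The total without protamine UMIs and the limit to clusters of 2000 UMIs were chosen after seeing the data. No paired analysis was possible because each genotype has 1 library. Thinned to 1000 UMIs, 0.740% and 1.61% of round-spermatid-like cells of the Prm2 +/- and Prm2 -/- libraries held at least 8 members, against 45.2% and 57.5% at 3020. In cluster 20 depth left no member past the filter.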

Other observations

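Zpbp, which spans 183 kb of chromosome 11, stood out in cluster 13, an unnamed germ cell cluster of low depth led by Magi2 and Zfp820 (466 Prm2 +/- and 989 Prm2 -/- cells, medians of 2057.5 and 1809 UMIs). It was 403 and 532 CPM there, a log2 ratio of 0.40 (0.26 to 0.54), and no other member passed 221 CPM. Acrv1 was 185 and 72.7 CPM in the same cells, a log2 ratio of -1.35 (-1.63 to -1.07). It was the 1 of 10 members 2-fold or more apart there, where 18% of 4820 genes were. A log2 ratio of at least 0.3 either way was found for 7 of 10, where 69.5% of those genes had one.

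Low-depth clusters ranked some members differently from the deep series. In cluster 16, round-spermatid-like, Acrv1 was 972 and 710 CPM, against 673 and 738 CPM in cluster 8, so that it was higher there in the Prm2 +/- library and lower in the Prm2 -/- library. Fam170b was 194 and 200 CPM in cluster 16, against 427 and 603 CPM in cluster 8.

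Cluster 17 held 2872 Prm2 +/- and 60 Prm2 -/- cells, was led by globin genes and had medians of 958.5 and 854 UMIs. Globin exceeded 1% of UMIs in only 9 of its Prm2 +/- cells. The cluster was left unnamed and scored highest for late spermatocyte (0.734) and round spermatid markers (0.703). The 10 members summed to 2814 and 3399 CPM in it.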
